A study of Mus musculus with 2 samples.

Results

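The genes Maf, Gata6, Cebpb, Cebpe, Spi1, Irf8, Irf4, Klf4 and Zeb2, 9 transcription factors that set the identity of myeloid cells, were followed across the leukocytes of a mouse malignant pleural effusion. They were taken by symbol from the gene lists of both libraries, where 9 of 9 were found among 27933 distinct symbols. The study put 150000 tumour cells of the Lewis lung carcinoma line LLC, suspended in 100 µl, into the pleural space of anaesthetised mice and drew off the fluid after 10 days. Red cells were lysed, and living cells positive for CD45, a leukocyte marker, and CD11b, a myeloid marker, were sorted and encapsulated for 3' end single-cell RNA sequencing. All samples belong to 1 group, effusion-bearing mice, given as 2 libraries, and there is no tumour-free reference. The labels give no strain, sex or number of mice and do not state whether different mice went into each library. A p-value here therefore measures a class difference only against how far such differences vary between these 2 libraries, which may be technical. In the main test a shift common to all classes of a library is taken out. The comparisons lie between 5 classes of cells gated on marker genes, none of them a member: resident macrophages (Alox15, Prg4, Icam2, Fabp4, Timd4 or Vsig4), dendritic cells (such as Cd209a, Mgl2, Flt3, Ccr7 and Xcr1), monocyte-derived macrophages (C1qa, C1qb and C1qc together with monocyte genes), neutrophils (such as S100a8, S100a9, Retnlg and Cxcr2) and monocytes (such as Ly6c2, Plac8, Chil3 and Vcan, with little C1q).

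Myeloid identity is set by factors that act in combination and at different doses. PU.1, the ETS factor encoded by Spi1, opens the enhancers of all myeloid lineages, and the others bias its output. In mice, Irf8 promotes monocytes and type 1 dendritic cells and restrains the neutrophil fate, Irf4 serves type 2 dendritic cells, and Klf4 serves monocytes and some dendritic cells. The C/EBP factors promote granulocytes, with Cebpe needed for secondary granules, while Maf and the repressor Zeb2 maintain macrophage programmes. Gata6 is the known master factor of the large resident macrophages of the pleural and peritoneal cavities.

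Promoters are shown for 2 pairs of members. Irf8 and Irf4 are relatives whose highest means among the 5 classes lay in monocytes and in dendritic cells, although neighbouring classes overlapped for Irf8. The levels of Cebpb and Klf4 ran in opposite directions between dendritic cells and monocytes. The promoters run from 250 bases before to 50 after a gene's start and come from a RefSeq table (build GRCm38.p6), which held 5 of the 9 members. In Irf8 (chr8:120736108-120736407, plus strand) the capitals mark the STAT palindrome TTCNNNGAA, which begins 171 and 153 bases before the start. In Irf4 (chr13:30748983-30749282, plus strand) they mark the GC box GGGCGG on either strand and the TATA motif TATAAA.
Irf8: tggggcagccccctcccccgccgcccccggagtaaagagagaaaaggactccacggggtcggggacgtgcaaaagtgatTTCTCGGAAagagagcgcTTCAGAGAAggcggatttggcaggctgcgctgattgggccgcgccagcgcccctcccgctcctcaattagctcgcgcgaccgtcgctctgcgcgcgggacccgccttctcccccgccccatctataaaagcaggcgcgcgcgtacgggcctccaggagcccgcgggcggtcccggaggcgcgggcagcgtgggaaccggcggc
Irf4: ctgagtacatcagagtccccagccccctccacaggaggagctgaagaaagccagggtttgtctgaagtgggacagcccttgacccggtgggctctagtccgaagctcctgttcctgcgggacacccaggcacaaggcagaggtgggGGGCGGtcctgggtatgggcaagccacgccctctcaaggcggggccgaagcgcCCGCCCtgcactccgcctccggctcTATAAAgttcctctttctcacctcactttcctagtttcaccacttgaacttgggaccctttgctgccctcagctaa
In Cebpb (chr2:167688665-167688964, plus strand) the capitals mark the cyclic AMP response core TGACG on either strand and TATAAA, and in Klf4 (chr4:55532426-55532725, minus strand) the GC box GGGCGG on either strand.
Cebpb: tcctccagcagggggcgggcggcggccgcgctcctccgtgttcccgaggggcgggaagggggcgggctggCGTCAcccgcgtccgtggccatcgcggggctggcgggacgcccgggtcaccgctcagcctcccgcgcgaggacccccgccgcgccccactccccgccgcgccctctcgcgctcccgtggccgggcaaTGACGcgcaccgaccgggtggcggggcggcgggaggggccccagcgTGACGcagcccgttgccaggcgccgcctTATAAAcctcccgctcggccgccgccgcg
Klf4: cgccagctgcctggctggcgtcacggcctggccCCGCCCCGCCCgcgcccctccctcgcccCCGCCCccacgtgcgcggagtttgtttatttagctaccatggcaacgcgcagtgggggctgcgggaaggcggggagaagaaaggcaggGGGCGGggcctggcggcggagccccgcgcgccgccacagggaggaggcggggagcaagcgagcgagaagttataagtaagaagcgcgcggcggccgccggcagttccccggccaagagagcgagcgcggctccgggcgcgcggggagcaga
Searched on both strands, TTCNNNGAA was held by 8.3% of the 32851 promoters of the table, GGGCGG by 35.7%, TATAAA by 13.6% and TGACG by 20.8%. The longer palindrome TGACGTCA, which contains TGACG and was held by 1.79%, was in none of the 4 windows. Different motifs are marked in each window, so the capitals do not compare the promoters. Left unmarked are 1 TATAAA and 3 GGGCGG in Irf8, 5 GGGCGG in Cebpb and 1 TGACG in Klf4. The RefSeq table lists 2 starts for Irf8, and the window of the one not shown held no TTCNNNGAA. Neighbouring GC boxes overlap in Klf4, and a match says only that these letters are present.

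Library 1 held 1141 cell barcodes with 11543829 gene UMIs (unique molecular identifiers, counted molecules; median 9894 per barcode), and library 2 held 2908 barcodes with 20322996 (median 1954). After filtering, 1106 and 2782 cells remained, and 4 barcodes occurred in both libraries. In libraries 1 and 2, the gates kept 27 and 22 resident macrophages, 149 and 45 dendritic cells, 248 and 469 monocyte-derived macrophages, 83 and 1557 neutrophils and 415 and 461 monocytes. Summed UMIs per class ran between 234741 (neutrophils, library 1) and 7473654 (monocyte-derived macrophages, library 2). Monocyte and macrophage gates cut a continuum: 41 and 264 cells lay within 1.5 times the C1q limit, and 256 and 535 within 1.5 times the monocyte limit. Each cell of library 2 also has counts for 2 anti-CD45 tags, BC2 and BC3, whose meaning the labels leave out, and these split by class: 1524 of 1557 neutrophils lay on the BC3 side and 458 of 469 monocyte-derived macrophages on the BC2 side. Levels are CPM, counts of a member per 1e6 UMIs summed over the class in 1 library, with means ± SD over n = 2 libraries; 95% Poisson intervals and the limits for a count of 0, taken as 3 UMIs per library, cover counting error only. The 10 dissociation stress genes listed, such as Fos, Jun and Hspa1a, summed to between 1223 and 5389 CPM in library 1 and between 2410 and 11279 CPM in library 2, higher in library 2 in each of the 5 classes; their part in the results was not tested.

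**Figure D1:**
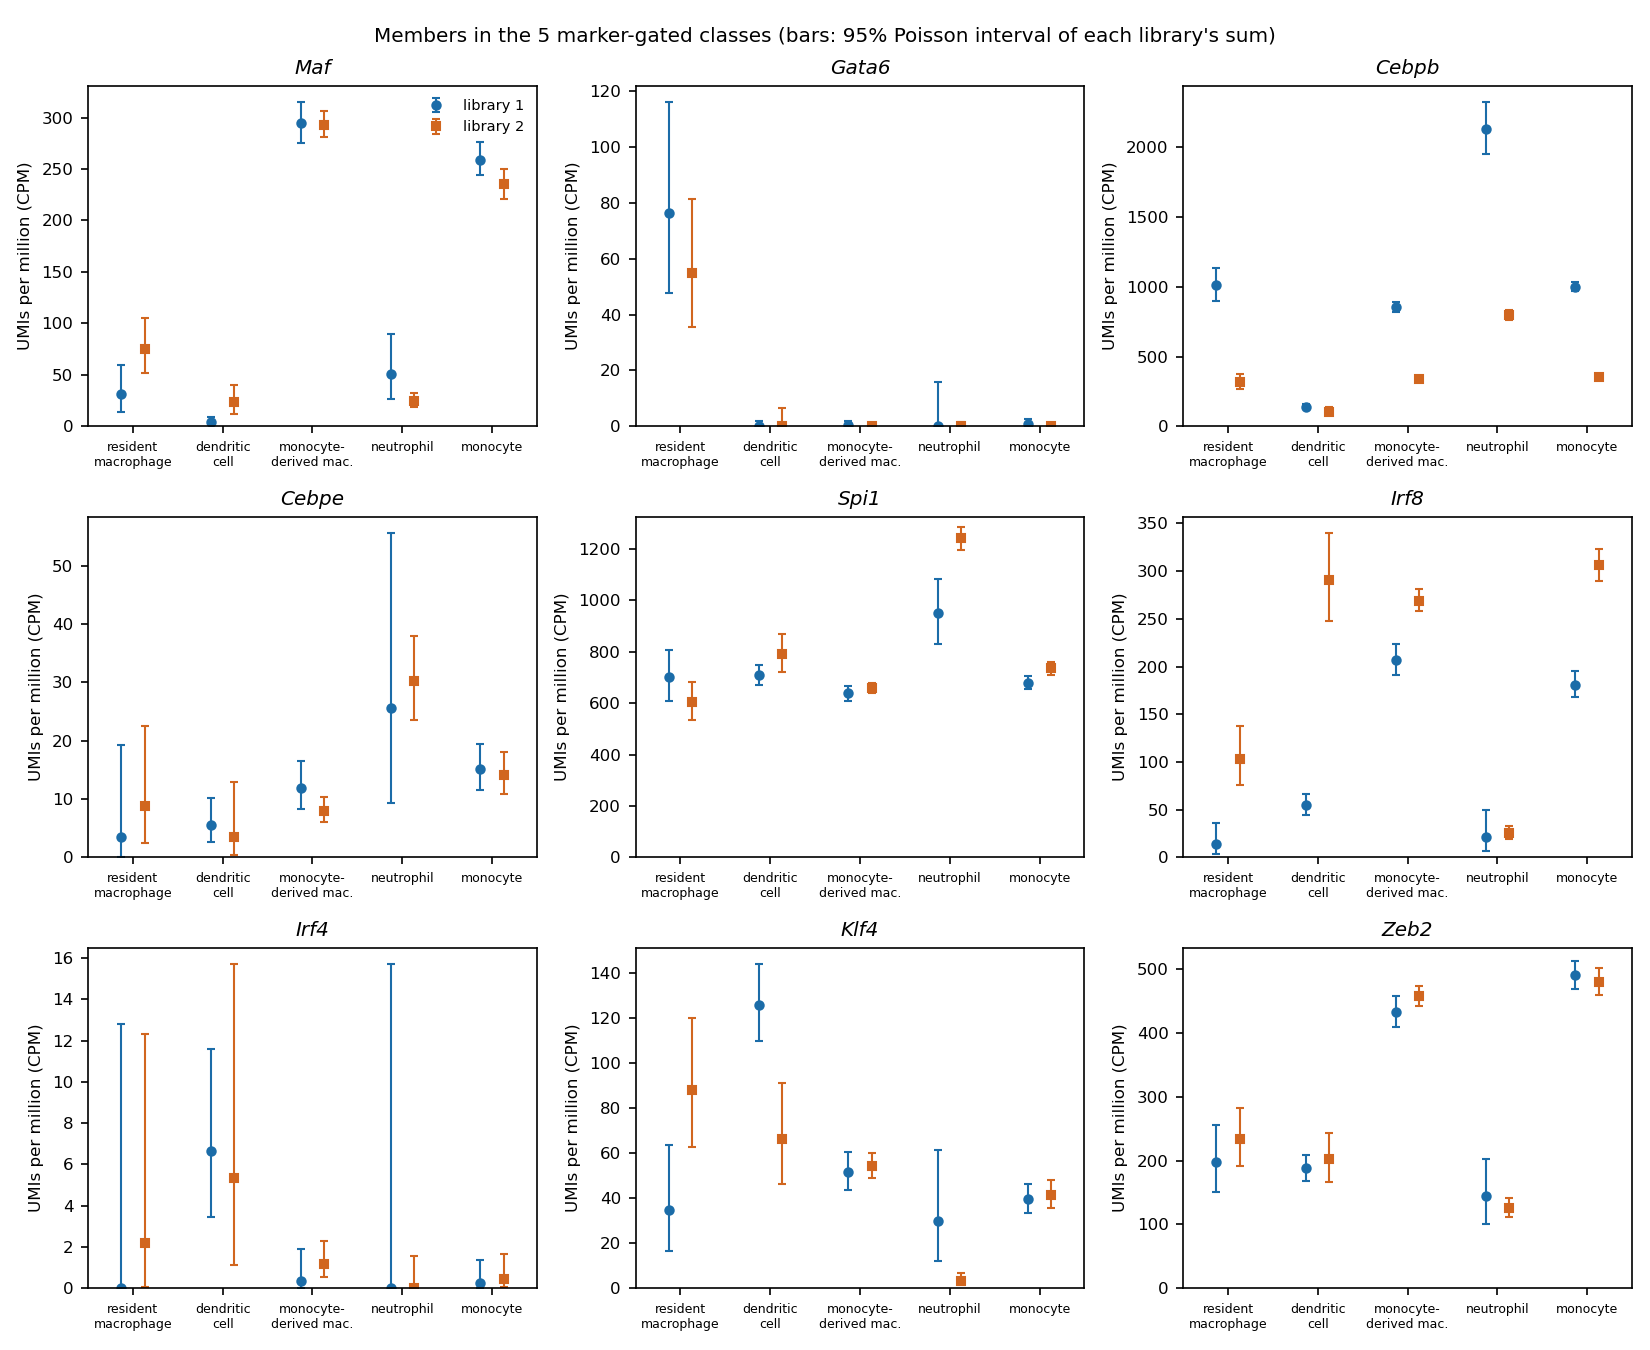
CPM of each member (y axis, from 0, own scale per panel) in the 5 gated classes (x axis), 1 point per library with its 95% Poisson interval. Gata6 stands out in resident macrophages (76.3 and 55 CPM), Maf and Zeb2 are highest in monocytes and monocyte-derived macrophages, and Cebpb is higher in library 1 than in library 2 in every class.

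Spi1, the factor common to the myeloid lineages, was the most even member. It reached 701 and 606 CPM in resident macrophages, 710 and 792 CPM in dendritic cells, 638 and 658 CPM in monocyte-derived macrophages, 950 and 1241 CPM in neutrophils and 680 and 736 CPM in monocytes. Neutrophils lay above all other classes in both libraries, and the other 4 classes overlapped with their neighbours in order of level. With each cell thinned to 1000 UMIs, 49.4% and 69.8% of neutrophils and 46.5% and 52.4% of monocytes held a Spi1 UMI, against 83.1% and 76.3% of neutrophils and 98.1% and 93.5% of monocytes at full depth.

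Gata6 was found mostly in the resident macrophages. These held 22 and 25 UMIs, or 76.3 CPM (interval 47.8 to 116) and 55 CPM (interval 35.6 to 81.3), while monocyte-derived macrophages held 1 and 0 UMIs and monocytes 4 and 1. No UMI was found in dendritic cells, which allows up to 1.67 and 5.36 CPM, or in neutrophils, which allows up to 12.8 and 1.26 CPM. Of the cells with a Gata6 UMI in any gate, 13 of 16 in library 1 and 14 of 15 in library 2 were resident macrophages. The gate did not use the gene, but it selects the cells in which Gata6 is known to act, so this is no independent support. Of the resident cells, 48.1% and 63.6% held a Gata6 UMI, against 0 of 83 and 0 of 1557 neutrophils, which should lack it, at median depths of 10908 and 19544 UMIs in resident cells and 2191 and 1310 in neutrophils.

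Maf, a macrophage factor, reached 31.2 and 74.9 CPM in resident macrophages, 4.45 and 23.2 CPM in dendritic cells, 295 and 293 CPM in monocyte-derived macrophages, 51.1 and 24.7 CPM in neutrophils and 259 and 235 CPM in monocytes. Monocyte-derived macrophages stood first and monocytes second, apart in both libraries; resident macrophages and neutrophils overlapped, and dendritic cells came last. Zeb2, a zinc finger repressor that maintains macrophage identity in mice, followed a similar order with 198 and 233 CPM in resident macrophages, 188 and 202 CPM in dendritic cells, 433 and 457 CPM in monocyte-derived macrophages, 145 and 126 CPM in neutrophils and 490 and 480 CPM in monocytes. Here monocytes came first without overlap, and only resident macrophages and dendritic cells overlapped. An antisense gene, Zeb2os, overlaps Zeb2 and was listed with 1131 and 1587 UMIs; since the use of strand in counting is not given in the sources used here, reads of the pair cannot be told apart.

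Irf8 had 13.9 and 103 CPM in resident macrophages, 54.5 and 291 CPM in dendritic cells, 207 and 269 CPM in monocyte-derived macrophages, 21.3 and 25.6 CPM in neutrophils and 181 and 306 CPM in monocytes. All 4 neighbouring pairs in the order of the means (monocytes, monocyte-derived macrophages, dendritic cells, resident macrophages, neutrophils) overlapped, with library 2 higher in each class. A single type 1 dendritic cell (any UMI of Xcr1 or Clec9a) carried 84 of the 163 dendritic Irf8 UMIs of library 2. Without the type 1 cells, 2 in library 1 and 1 in library 2, dendritic cells were at 45.2 and 147 CPM.

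Irf4 was scarce, with 22 and 31 UMIs over all kept cells. Dendritic cells held 12 and 3 of them, or 6.67 CPM (interval 3.45 to 11.6) and 5.36 CPM (interval 1.11 to 15.7), resident macrophages 0 and 1, monocyte-derived macrophages 1 and 9 and monocytes 1 and 2. Neutrophils held 0, which allows up to 12.8 and 1.26 CPM. Among dendritic cells, the type 2 cells (Cd209a, Mgl2) carried 11 of 12 and 2 of 3 of the Irf4 UMIs, at 10.6 and 10.3 CPM. The 9 and 8 mature dendritic cells (Ccr7, Fscn1) held none, but their summed UMIs are too few to place them below the type 2 cells.

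Klf4 reached 34.7 and 88.1 CPM in resident macrophages, 126 and 66.1 CPM in dendritic cells, 51.7 and 54.3 CPM in monocyte-derived macrophages, 29.8 and 3.35 CPM in neutrophils and 39.5 and 41.6 CPM in monocytes. Dendritic cells came first by mean but overlapped with resident macrophages, which overlapped with monocyte-derived macrophages. Monocytes lay below the monocyte-derived macrophages without overlap, but the resident macrophages of library 1 lay below the monocytes of both libraries. Neutrophils came last, without overlap with any class. The neutrophil value of library 1 rests on 7 UMIs in 2 cells. Within the dendritic gate, type 2 cells had 143 and 108 CPM, and the mature cells 0 and 1 UMIs. Within the monocyte gate, cells with a Ly6c2 UMI had 24 and 37.8 CPM and cells without one 49.7 and 59.7 CPM, so Klf4 was lower in the Ly6c2 cells of both libraries.

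Cebpb, which serves stress granulopoiesis and macrophage activation, had 1010 and 319 CPM in resident macrophages, 139 and 105 CPM in dendritic cells, 854 and 338 CPM in monocyte-derived macrophages, 2130 and 798 CPM in neutrophils and 1000 and 355 CPM in monocytes. Within each library neutrophils were highest and dendritic cells lowest, yet neighbouring classes overlapped between libraries, all but the dendritic cells, with library 1 above library 2 everywhere. Cebpb overlaps Tmem189 on the opposite strand, listed with 880 and 1842 UMIs. Cebpe had 3.47 and 8.81 CPM in resident macrophages, 5.56 and 3.57 CPM in dendritic cells, 11.9 and 8.03 CPM in monocyte-derived macrophages, 25.6 and 30.2 CPM in neutrophils and 15.2 and 14.1 CPM in monocytes. Neutrophils and then monocytes led without overlap, but the neutrophil value of library 1 comes from 6 UMIs. In neutrophils with a UMI of the granule genes Ltf, Camp or Ngp, Cebpe had 3 UMIs in 12 cells and 2 UMIs in 35 cells, too few to place beside the remaining neutrophils.

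Differences between classes were tested with edgeR's quasi-likelihood test on UMIs summed per library and class, with Benjamini-Hochberg adjustment over the 9446 genes that passed the filter on low counts and calls at 0.05. All 9 members passed the filter, but Gata6 passed only through the resident macrophages and Irf4 only through the dendritic cells, so their calls in those comparisons restate where they were found. A log2 fold change is the first class over the second, ± its standard error, with n = 2 libraries. Comparisons that share a class are not independent.

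**Figure D2:**
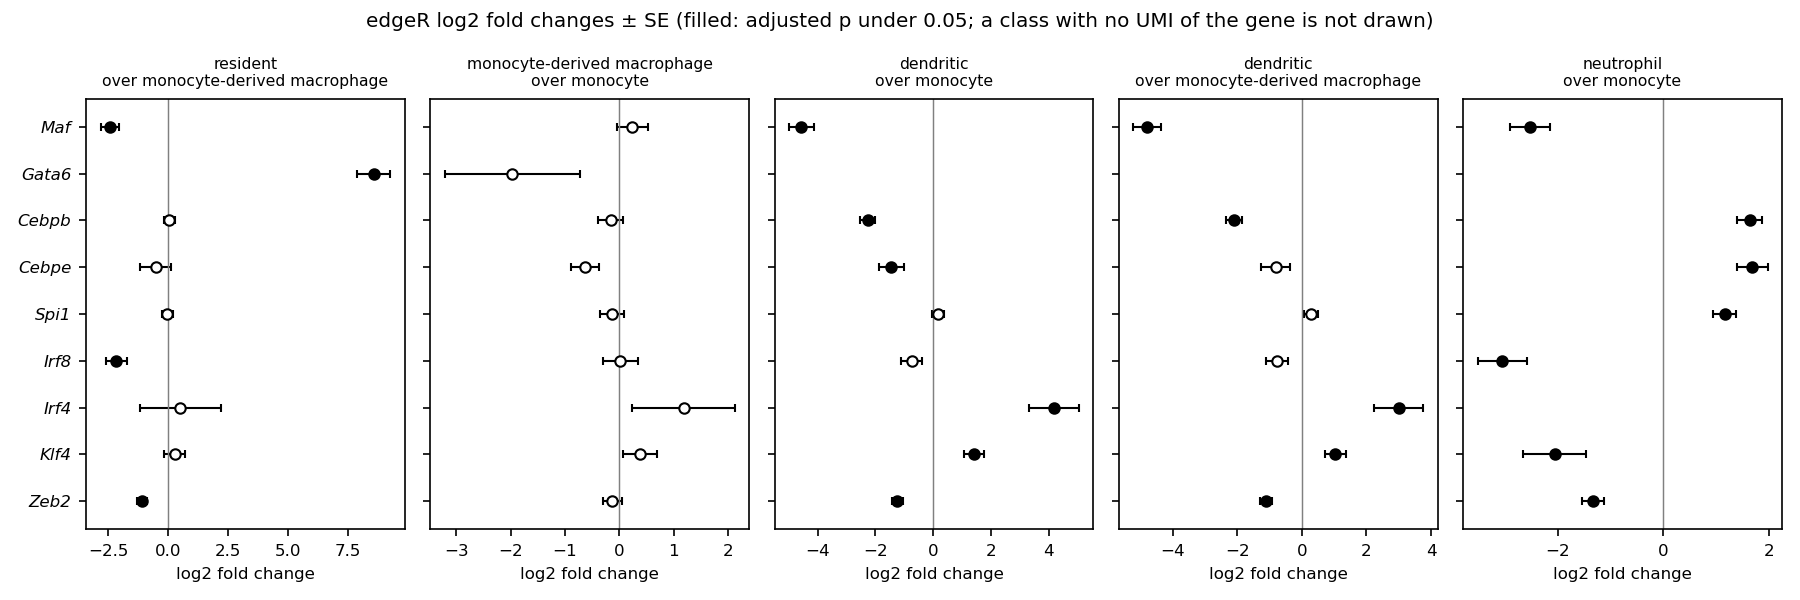
edgeR log2 fold change ± SE (x axis, own scale per panel) of each member (y axis) in the 5 comparisons, the class named first over the class named second; filled points have an adjusted p under 0.05, and pairs with no UMI in a class are not drawn. Maf and Zeb2 lie left of 0 in resident macrophages, dendritic cells and neutrophils, and no point is filled for monocyte-derived macrophages over monocytes.

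Resident macrophages differed from monocyte-derived macrophages in 4 of the 9 members, 1 higher and 3 lower, beside 11.5% of all genes tested. Gata6 was higher by 8.59 ± 0.70 on the log2 scale (adjusted p = 1.48e-06, edgeR), with a ratio of 659 (counting interval 113 to 26591) against the 1 UMI of the monocyte-derived cells. Maf fell by 2.45 ± 0.38 (edgeR adjusted p = 0.000317), Irf8 fell by 2.17 ± 0.44 (adjusted p = 0.00326) and Zeb2 fell by 1.09 ± 0.20 (adjusted p = 0.0017), each in 2 of 2 libraries. Cebpb (0.04 ± 0.23), Spi1 (-0.04 ± 0.22), Klf4 (0.27 ± 0.43), Cebpe (-0.53 ± 0.66) and Irf4 (0.50 ± 1.70) did not pass. The Maf call was lost with clusters in place of gates (-1.87, edgeR adjusted p = 0.122), and the Irf8 call with the BC2 side alone (-1.71, adjusted p = 0.0513) and without the library as block (-2.00, adjusted p = 0.218).

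Inside library 2 these values split by tag side. The 11 resident cells of the BC2 side had 125 CPM of Maf and 163 CPM of Irf8, the 11 of the BC3 side 5.24 and 21 CPM. Gata6 was at 49.4 CPM on the BC2 side and 62.9 CPM on the BC3 side. C1q was also higher on the BC2 side (5178 CPM) than on the BC3 side (2779 CPM), while monocyte markers differed less (10383 and 8751 CPM). Resident macrophages of libraries 1 and 2 held 4452 and 9697 CPM of monocyte markers, beside 5570 and 9928 CPM in monocyte-derived macrophages. The part of C1q and monocyte markers in the result was not tested.

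Genes known from mice to be lower in cavity macrophages without Gata6 were high in the same resident cells. All 10 of 10 listed genes were higher in resident than in monocyte-derived macrophages in both libraries, without overlap, beside 24.5% of all genes tested, and 8 of the 9 that passed the filter were called as higher, beside 7.33%, with a median log2 fold change of 7.10 beside -0.07 over all genes. Several of them are near 0 elsewhere and passed the filter through the resident cells, so the count of calls describes the class and is no independent support. Serpinb2, a serine protease inhibitor, had 1235 and 1008 CPM in resident cells and 8.16 and 2.01 CPM in monocyte-derived cells. F5, coagulation factor V, had 291 and 359 CPM in resident cells and 3.74 and 5.62 CPM in monocyte-derived cells. Selp (P-selectin), Aspa (aspartoacylase) and Garnl3 were called as well, with log2 fold changes of 6.18 ± 0.33, 7.58 ± 0.36 and 9.87 ± 0.53, where Garnl3 faced a single UMI. Thbs1 was the one without a call, at 958 and 1024 CPM in resident cells and 706 and 662 CPM in monocyte-derived cells.

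Genes linked to Maf in macrophages ran the other way: 5 of the 6 tested were lower in resident macrophages and none higher, beside 4.21% of all genes called as lower, with a median of -2.46. Mrc1, the mannose receptor, had 3.47 and 50.6 CPM in resident cells and 274 and 280 CPM in monocyte-derived cells. Folr2, a folate receptor, had 3.47 and 15.4 CPM in resident cells and 199 and 84.7 CPM in monocyte-derived cells. Cd163, the haemoglobin scavenger receptor, fell by 5.49 ± 0.90, Pf4 by 1.69 ± 0.37 and Selenop, a selenium carrier, by 0.86 ± 0.27 (edgeR adjusted p = 0.000542, 0.00516 and 0.0478). C1qa, C1qb and C1qc of this list gated the monocyte-derived cells and were not tested.

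**Figure D3:**
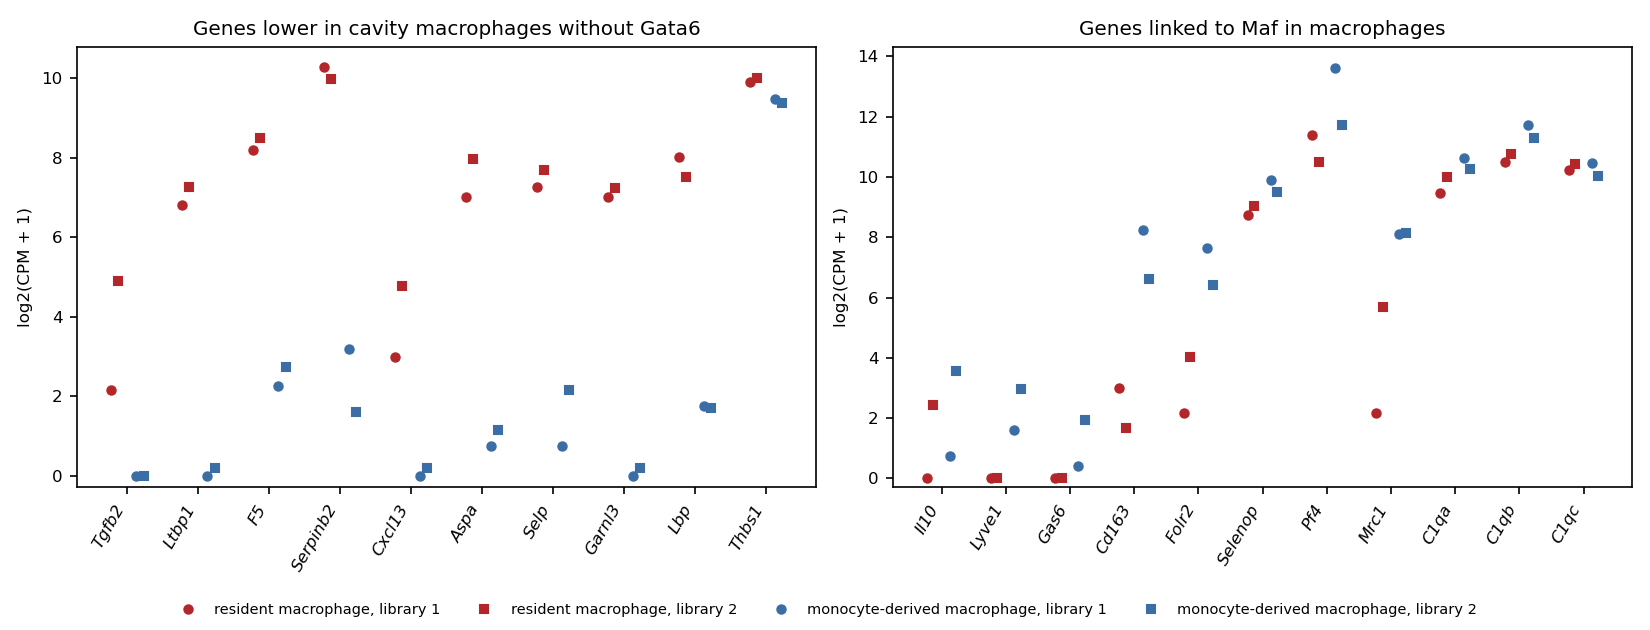
log2(CPM + 1) (y axis) of the genes lower in cavity macrophages without Gata6 (left) and the genes linked to Maf (right) in resident and monocyte-derived macrophages, 1 point per library. All 10 genes on the left are higher in the resident cells of both libraries; on the right, Cd163, Folr2 and Mrc1 are lower there.

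Of 35 tested among 42 other myeloid transcription factors measured, 6 were higher and 4 lower in resident macrophages, beside 7.33% and 4.21% of all genes, with a median of -0.28. Bhlhe40, a helix-loop-helix repressor that supports macrophage proliferation in cavities of mice, had 222 and 154 CPM in resident cells and 10.5 and 13.9 CPM in monocyte-derived cells. Rarb, a retinoic acid receptor, was found with 5 and 7 UMIs in resident cells and 2 and 0 in monocyte-derived cells. It passed the filter only through the resident cells, so its call restates where it was found. Id2, Cebpa and Klf2 were higher by 2.06 ± 0.22, 1.03 ± 0.23 and 1.55 ± 0.35 (edgeR adjusted p = 6.52e-06, 0.00683 and 0.00742). Irf5 and Irf7, factors of inflammatory and interferon responses, fell by 1.89 ± 0.24 and 1.09 ± 0.32, and Hif1a, the hypoxia factor, by 1.82 ± 0.24. The fall of Irf7 came mostly from library 2, with 52.1 and 94.7 CPM in resident cells and 59.9 and 246 CPM in monocyte-derived cells. Prdm1 was at 0 UMIs in resident cells against 8 and 108, or 2.72 and 14.5 CPM, in monocyte-derived cells. The resident sum of library 1 is too small to show a level of 2.72 CPM, so this contrast rests on library 2.

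No member was called between monocyte-derived macrophages and monocytes, although the levels of 5 did not overlap between the libraries of both classes. Maf and Klf4 were above and Zeb2, Cebpe and Spi1 below in monocyte-derived macrophages, where 25.8% of all genes tested had no overlap. None of the 9 was called by edgeR or by DESeq2, and 1 had an unadjusted p under 0.05, beside 0.138% of all genes called. That one was Cebpe (-0.63 ± 0.26, unadjusted p = 0.0258, edgeR adjusted p = 0.825), lower in 2 of 2 libraries. The other changes were 0.24 ± 0.28 for Maf, 0.02 ± 0.33 for Irf8, 0.38 ± 0.31 for Klf4, -0.13 ± 0.18 for Zeb2, -0.16 ± 0.23 for Cebpb and -0.14 ± 0.22 for Spi1. Gata6 (-1.97 ± 1.24, from 1 UMI in monocyte-derived macrophages and 5 in monocytes) and Irf4 (1.18 ± 0.94, from 10 UMIs and 3) had the widest errors. Missing the threshold does not show that the classes are alike. Of the other 35 factors edgeR called none, and 2 had an unadjusted p under 0.05. Of the genes linked to Maf, Folr2 was the only one called (1.51 ± 0.21, edgeR adjusted p = 0.00383). An unadjusted edgeR p under 0.05 was found for 5 of the 6 tested, beside 510 of all 9446 genes. Their median log2 fold change was 0.79, beside -0.01 over all genes. The C1q limit that separates these classes uses genes of the same list, so these values are no independent support.

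Cells with monocyte markers and no other lineage were also divided by their C1q UMIs per 10000, with limits chosen after seeing the data. Maf was at 304 and 302 CPM in the cells with 40 C1q UMIs or more and at 285 and 236 CPM in those with none, and dipped between. Klf4 was at 50.1 and 52.2 CPM in the cells with 40 or more and at 33.3 and 45 CPM in those with none, with its highest value of library 1 between, at 72.5 CPM in the cells with 2 to 10. Cebpe was at 7.85 and 7.68 CPM in the cells with 40 or more and at 16.6 and 13.2 CPM in those with none. Maf and Klf4 were higher and Cebpe lower at the high end than at the low end of both libraries, but the 95% Poisson intervals of both ends overlapped for each of them except Maf in library 2 (285 to 320 CPM with 40 or more, 218 to 256 CPM with none). Among the monocyte-derived macrophages, those with at least 2 UMIs of Folr2 and Cd163 had 317 and 327 CPM of Maf, and the others 249 and 254 CPM.

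**Figure D4:**
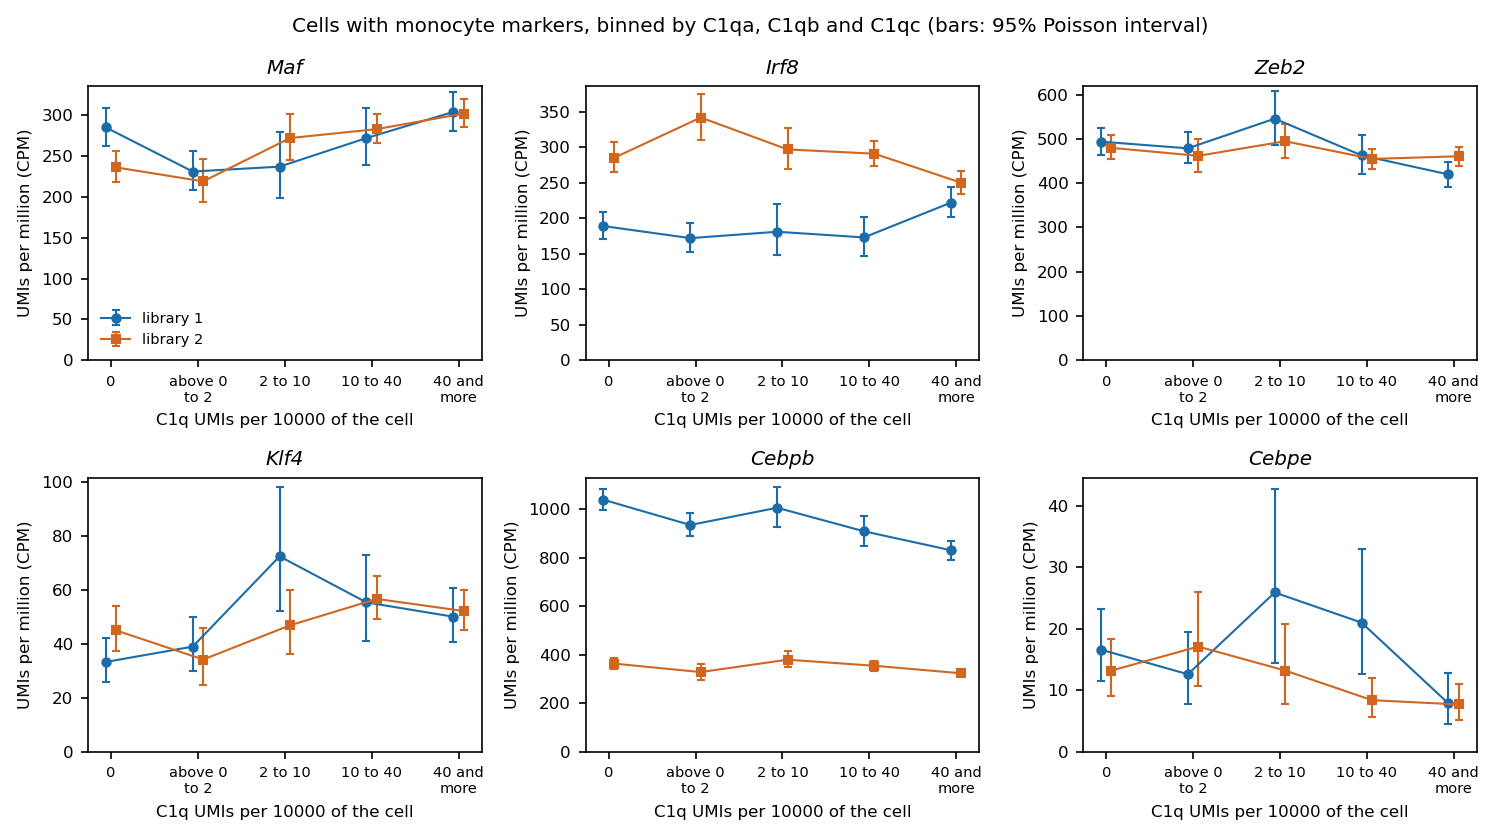
CPM (y axis, from 0) of 6 members in cells with monocyte markers, by the cell's C1q UMIs per 10000 (x axis), 1 line per library with 95% Poisson intervals. Maf lies between 219 and 304 CPM throughout, and Cebpe is lowest in the cells with 40 or more.

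Dendritic cells differed from monocytes in 6 of the 9 members, 2 higher and 4 lower, beside 20% of all genes. Irf4 was higher by 4.18 ± 0.86 (edgeR adjusted p = 0.00268), a ratio of 17.8 (counting interval 5.05 to 96.1) from 15 UMIs in dendritic cells against 3 in monocytes. Klf4 was higher by 1.41 ± 0.34 (adjusted p = 0.00677, edgeR). Maf fell by 4.56 ± 0.43 (edgeR adjusted p = 1.72e-06), Cebpb by 2.27 ± 0.25 (1e-05), Zeb2 by 1.24 ± 0.19 (0.000255) and Cebpe by 1.46 ± 0.43 (0.0255), each in 2 of 2 libraries. Spi1 (0.16 ± 0.22) and Irf8 (-0.75 ± 0.35, edgeR adjusted p = 0.156) did not pass.

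Several of these calls depend on the processing. Klf4 was lost with DESeq2 (adjusted p = 0.304) and without the library as block (edgeR adjusted p = 0.241), Cebpe with DESeq2 (adjusted p = 0.1), without the block (edgeR, 0.105), on the BC2 side alone (0.0587) and against Ly6c2 monocytes (0.0588), Cebpb without the block (0.0992) and Maf with clusters (-1.92, edgeR adjusted p = 0.0836). Without the filter on low counts, Irf8 was called as lower (-0.83, edgeR adjusted p = 0.00381). Irf4 did not pass the filter, and so was not tested, with stricter gates, with clusters, on the BC2 side alone or against Ly6c2 monocytes.

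Against monocyte-derived macrophages, dendritic cells differed in 5 of 9 members, 2 higher and 3 lower, beside 20.2% of all genes. Irf4 was higher by 3.0 ± 0.76 and Klf4 by 1.03 ± 0.33 (edgeR adjusted p = 0.0104 and 0.0381). Maf fell by 4.80 ± 0.43, Cebpb by 2.10 ± 0.25 and Zeb2 by 1.11 ± 0.19 (edgeR adjusted p = 1.01e-06, 1.85e-05 and 0.000646). The calls of Irf4 and Klf4 were lost with DESeq2 (adjusted p = 0.128 and 0.549). Klf4 was also lost without the block (edgeR adjusted p = 0.416) and with clusters (0.258), Cebpb without the block (0.127), and Irf8 was gained without the filter (-0.84, 0.00325). Irf4 again was not tested with stricter gates, with clusters or on the BC2 side alone.

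Among the 35 other factors, 10 were higher and 6 lower in dendritic cells than in monocytes, beside 11.3% and 8.71% of all genes, and 9 and 7 against monocyte-derived macrophages, beside 11.4% and 8.8%. Zbtb46, the factor that marks conventional dendritic cells, had 32 and 9 UMIs in dendritic cells and 1 and 1 in monocytes. It passed the filter only through the dendritic cells, so its calls restate where it was found. Id2, which opposes helix-loop-helix factors and serves dendritic cell development, had 1445 and 1043 CPM in dendritic cells, 167 and 154 CPM in monocyte-derived macrophages and 383 and 248 CPM in monocytes. Bhlhe40 was at 197 and 123 CPM in dendritic cells and at 13.9 and 20.5 CPM in monocytes. Etv3 and Relb, an NF-kappaB subunit of mature dendritic cells, were higher than in monocytes by 2.20 ± 0.25 and 2.26 ± 0.27. Tfec, a macrophage-restricted relative of Mitf, had 1.67 and 8.93 CPM in dendritic cells and 52.2 and 70.7 CPM in monocytes. Hif1a, Klf2 and Klf13 were also lower than in monocytes, and Fli1 was among those lower than in monocyte-derived macrophages.

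The genes linked to single members moved as follows in dendritic cells against monocytes, where 11.3% of all genes were called as higher and 8.71% as lower. Both tested genes linked to Irf4, Ccl22 (a chemokine) and Pdcd1lg2 (PD-L2), were higher. Ccl22 had 33 and 12 UMIs in dendritic cells and 1 and 0 in monocytes, and Pdcd1lg2 32 and 13 in dendritic cells and 2 and 7 in monocytes; both passed the filter only through the dendritic cells, so their calls and median restate where they were found. Of 5 linked to Irf8, 4 were higher and none lower although Irf8 itself was not called; Cst3 (cystatin C) had 6477 and 6069 CPM in dendritic cells and 1701 and 2066 CPM in monocytes, and Ifi205 had 102 and 356 CPM in dendritic cells and 8.45 and 57.5 CPM in monocytes. Wdfy4 and Naaa completed the 4, with 1.00 ± 0.27 and 0.65 ± 0.19. Of 8 linked to Spi1, 6 were lower and none higher although Spi1 was not called; the Fc receptors Fcgr3 and Fcgr1 fell by 2.23 ± 0.25 and 1.73 ± 0.31 and Cd14, a co-receptor for lipopolysaccharide, by 2.48 ± 0.24. Tlr4 and Csf1r fell by 1.82 ± 0.29 and 0.82 ± 0.19. Of 6 linked to Maf, 5 were lower, Pf4 by 4.88 ± 0.43, Selenop by 2.85 ± 0.30, Folr2 by 3.78 ± 0.43, Cd163 by 2.75 ± 0.62 and Mrc1 by 1.46 ± 0.34. Their medians were 5.63, 1.00, -1.27 and -2.86 in that order, beside 0.00 over all genes.

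Neutrophils differed from monocytes in 7 of the 9 members, 3 higher and 4 lower, where 51.4% of all genes were called, so a high count says little about the members as a set. Cebpe was higher by 1.68 ± 0.29, Cebpb by 1.63 ± 0.23 and Spi1 by 1.16 ± 0.22 (edgeR adjusted p = 0.000208, 4.02e-05 and 0.000477). Irf8 fell by 3.05 ± 0.47, Maf by 2.53 ± 0.38, Klf4 by 2.06 ± 0.60 and Zeb2 by 1.34 ± 0.21 (edgeR adjusted p = 7.57e-05, 6.46e-05, 0.009 and 7.49e-05). Each direction held in 2 of 2 libraries, but the single-library log2 ratios of Klf4 were -0.31 and -3.55, so its change comes mostly from library 2. The size depends on the scaling: the median of all genes was -0.14 with TMM and -0.74 on summed UMIs alone, and without that factor the single-library log2 ratios of Spi1 were 0.49 and 0.75, those of Cebpb 1.09 and 1.17, and those of Cebpe 0.86 and 1.10. The 7 directions and calls were the same under both scalings.

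All 7 calls were lost when library 2 was limited to its BC2 side, which keeps 33 of its 1557 neutrophils, with adjusted p between 0.0546 for Cebpb and 0.663 for Klf4 (edgeR). The Klf4 call was also lost with DESeq2 (adjusted p = 0.233) and without the block (edgeR adjusted p = 0.125), and the Cebpb call without the block (0.126). The 33 neutrophils of the BC2 side had 202 CPM of Maf, 181 CPM of Irf8 and 377 CPM of Zeb2, and the 1524 of the BC3 side had 13.4, 15.6 and 110 CPM. The same 33 cells had 60796 CPM of neutrophil markers and 13433 CPM of monocyte markers, while the BC3 side had 148626 and 3690 CPM. Monocyte markers were thus higher on the BC2 side together with Maf, Irf8 and Zeb2, and neutrophil markers were lower there. The part of these markers in the difference was not tested, and tag side and cell class cannot be told apart for most cells of library 2.

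**Figure D5:**
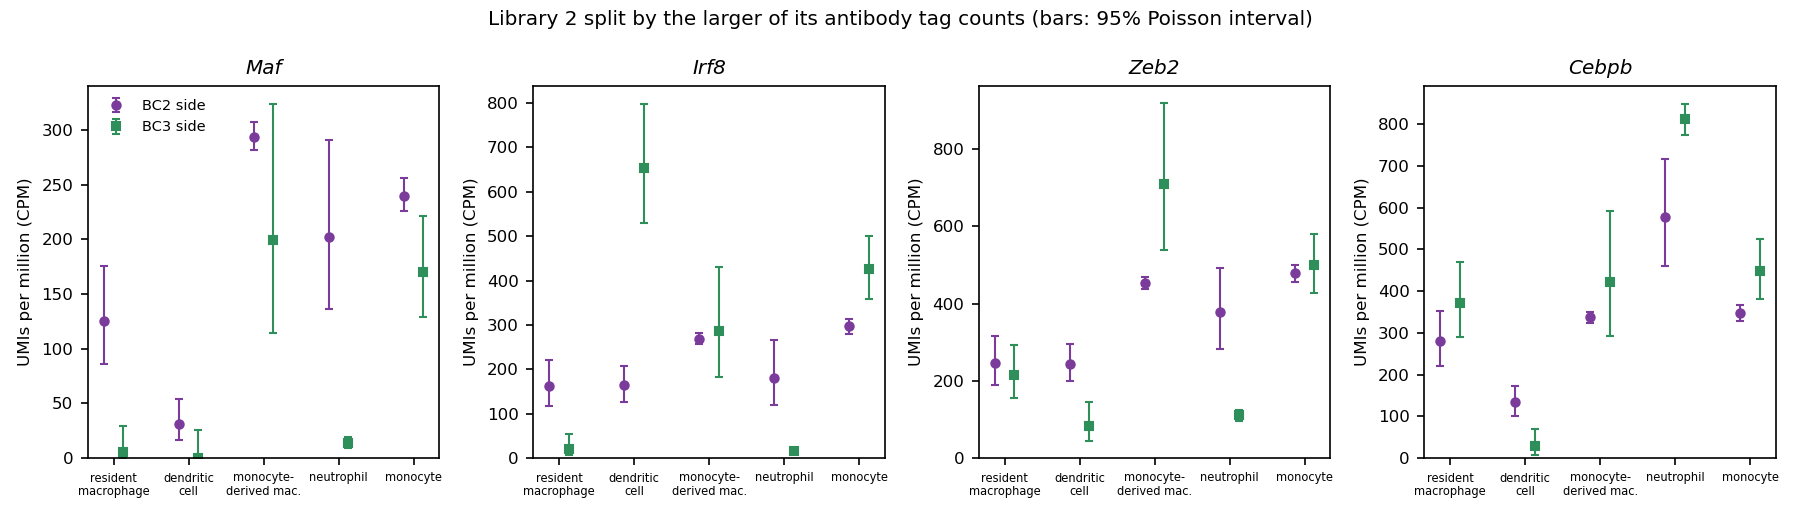
CPM (y axis, from 0) of 4 members in the cells of library 2 on the BC2 and the BC3 side of the antibody tags, by class (x axis), with 95% Poisson intervals. Maf is at 202 CPM in BC2 neutrophils and 13.4 CPM in BC3 neutrophils, and Irf8 at 163 CPM in BC2 resident macrophages and 21 CPM in BC3 resident macrophages.

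Free RNA can place UMIs of these genes in neutrophils. Of the macrophage genes set beside the members, C1q (C1qa, C1qb and C1qc), which gated the monocyte-derived macrophages, was in neutrophils at 1.53% and 2.65% of its level there, Apoe at 19.1% and 8.35% and Csf1r at 29.1% and 22%. Cells that met the C1q limit were left out of the neutrophils, so the gates themselves held the C1q share down and it cannot measure free RNA. Maf was at 17.4% and 8.44% of its level in monocyte-derived macrophages, Irf8 at 10.3% and 9.49% and Zeb2 at 33.5% and 27.5%. The shares of Maf and Irf8 lay between those of C1q and Csf1r, with Maf close to Apoe, and that of Zeb2 lay above those of C1q, Apoe and Csf1r; the part of free RNA in these levels was not tested. Maf UMIs were in 8.43% and 2.44% of neutrophils, and in 76.9% and 69.6% of monocytes, at median depths of 2191 and 1310 UMIs in neutrophils and 9434 and 9512 in monocytes; with 1000 UMIs per cell the shares were 3.61% and 1.09% of neutrophils and 23.4% and 22.4% of monocytes.

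Among the 35 other factors, 16 were higher and 7 lower in neutrophils than in monocytes, beside 25.3% and 26.1% of all genes, with a median of 0.82 beside -0.14. Ets2 had 85.2 and 145 CPM in neutrophils and 19.9 and 23.2 CPM in monocytes. Zeb1, the relative of Zeb2, was found with 6 and 78 UMIs in neutrophils and 1 and 15 in monocytes, opposite in direction to Zeb2. Irf1, Id2 and Rara were higher by 2.55 ± 0.33, 1.82 ± 0.21 and 1.73 ± 0.22. Tfec fell by 2.35 ± 0.31, Tcf4 by 1.81 ± 0.37, Cebpa, which acts early in granulopoiesis, by 1.30 ± 0.29 and Irf5 by 0.96 ± 0.21. Of the secondary granule genes linked to Cebpe, 4 of 8 passed the filter and 3 were higher, beside 25.3% of all genes: Lcn2 (lipocalin 2) had 2905 and 1315 CPM in neutrophils and 101 and 120 CPM in monocytes, Mmp8 (a collagenase) had 605 and 259 CPM in neutrophils and 68.6 and 88.9 CPM in monocytes, and Ngp had 42 and 40 UMIs in neutrophils and 6 and 1 in monocytes. Ngp passed the filter only through the neutrophils, so its call restates where it was found. Cd177, the one tested without a call, had 46.9 and 30.2 CPM in neutrophils and 45.3 and 63.9 CPM in monocytes. Of the 4 below the filter, Ltf had 0 and 8 UMIs in neutrophils and none in monocytes, Camp 0 and 1 in neutrophils and 5 and 0 in monocytes, Fcnb none in neutrophils and 9 and 11 in monocytes, and Itgb2l 1 and 3 in neutrophils and none in monocytes.

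Genes with the most similar pattern were sought by Pearson correlation over the 10 library and class points of log2(CPM + 5), centred on each library's mean. The points share 2 libraries and 5 classes, so the values describe these sums only. Maf was closest to Ccl6 (0.993), Cdk20 (0.993) and Apoe (0.989), and Gata6 to Sdsl (0.999), Ptgis (0.999) and Ces2g (0.998), of which Sdsl had 20 UMIs and Ces2g 32. Cebpb was closest to Prdx5 (0.982), Hp (0.973) and Herc4 (0.973), and Cebpe to Slc7a11 (0.978), Rhog (0.975) and Arnt (0.972). Spi1 was closest to Syf2 (0.997), Ezr (0.986) and Ip6k1 (0.984), Irf8 to Prpf3 (0.987), Exosc3 (0.982) and Tifab (0.981), Klf4 to Cds1 (0.989), Rpusd4 (0.960) and Prosc (0.956), and Zeb2 to Slc35f6 (0.983), Ywhag (0.980) and Ufm1 (0.979). Irf4, with 29 UMIs in the 5 classes, had too few for this. Among the other 8 members, Maf and Zeb2 (0.86) and Irf8 and Zeb2 (0.85) were the closest pairs, and Spi1 and Klf4 (-0.81) the most opposed.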

How the data were processed

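UMI counts per gene and cell barcode were deposited by the authors for 2 libraries as unnormalized matrices already limited to called cells; per the submitters' processing notes, Cell Ranger 3.0.1 and mm10 were used. For the annotation release and strand use, nothing was given in the sources used here. Barcodes needed at least 300 genes and at most 10% mitochondrial UMIs, and the filters removed 25 and 61 of them; a further 10 and 65 were called as pairs by their neighbours among simulated pairs. Classes were gated per cell on marker UMIs per 10000 (neutrophil 160, C1q 10, monocyte 20 with C1q under 5, dendritic 5, resident 20, lymphoid 5; at least 3 marker UMIs for C1q, dendritic, resident and lymphoid), and cells of 2 lineages were left out. The limits were set from the marker sums alone after seeing them, and Saa3, which was spread over other cells, was dropped from the resident gate. As an alternative, cells were clustered with leidenalg 0.10.2, without the members among the features. Summed UMI counts were tested with edgeR 4.0.16 in R 4.3.3 (TMM, filterByExpr, library as block because the same 2 libraries supply every class, all classes in 1 fit), and DESeq2 1.42.0 was an alternative. The fit was tested on simulated data. The standard error is the absolute log2 fold change over the root of the moderated F. Named genes are all 9 members, of each list the called genes with the smallest adjusted p (at most 5 per direction), and the 3 genes most correlated with each member that had at least 50 UMIs. The members and lists were chosen with earlier results of these data known, so no list count is independent support. Coordinates are those of RefSeq's GRCm38.p6 table. 1 gene of the lists is counted but not reported here.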

Additional observations from a re-analysis of the deposited data

Results flagged for a closer look

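The antibody tags of library 2, which enter no level or main test, split by cell class: 97.9% of its neutrophils lay on the BC3 side and 97.7% of its monocyte-derived macrophages on the BC2 side. No control sample exists for the tags, and the labels do not say what they mark.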

How the results depend on the processing

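No direction reversed for a called member. Without the replicate block, which pairs the classes drawn from the same library, 3 members were called in dendritic cells against monocytes in place of 6, and 3 in place of 5 against monocyte-derived macrophages; DESeq2 and clusters in place of gates also gave 3 in the second comparison. On the BC2 side of library 2 alone, 0 members were called in neutrophils against monocytes in place of 7. All other counts of members stayed within 1.5 times the main one under size factors of DESeq2 in edgeR, no filter, stricter gates, pairs kept and the 2 alternatives added after seeing the data (Ly6c2 monocytes only, and no scaling factor). Irf4 fell below the filter with stricter gates, clusters, the BC2 side alone and Ly6c2 monocytes, so 8 members were tested there. Counts over all genes moved more. For monocyte-derived macrophages against monocytes, 13 genes were called in the main test, 111 with clusters, 77 without the filter, 23 against Ly6c2 monocytes, 8 on the BC2 side and 3 without the block. For neutrophils, 4859 became 533 on the BC2 side and 3195 without the block. For resident macrophages, 1090 became 504 without the block and 603 on the BC2 side. For dendritic cells, 1893 against monocytes became 615 without the block and 1000 with clusters, and 1911 against monocyte-derived macrophages became 653 and 1023. The causes were not tested. Depth limits Gata6, Irf4 and Cebpe, which rest on few UMIs. Leaving out a library leaves a ratio with no test.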

Other observations

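Cells outside the 5 classes also carried members. Gated B cells (27 and 13 cells, found although the sort was for CD11b) had 339 and 413 CPM of Irf8, which also serves B cells, and 152 and 128 CPM of Spi1. Their 6 and 8 Irf4 UMIs lay in 2 cells of library 1 and 1 cell of library 2. Maf was at 1 and 0 UMIs there, and Gata6, Cebpe and Klf4 at 0.

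Macrophages with C1q but few monocyte markers (86 and 8 cells) had 173 and 89.4 CPM of Klf4, above the 51.7 and 54.3 CPM of the monocyte-derived macrophages in both libraries, and 313 and 313 CPM of Maf. Zeb2 was at 369 and 358 CPM in these cells and at 433 and 457 CPM in the monocyte-derived macrophages, and no Gata6 UMI was found in them. The Klf4 value of library 2 rests on 8 UMIs in 3 cells, and no test was made.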
